A study of Mus musculus with 6 samples.

Results

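Elastic-type smooth muscle cells without Pln were the most numerous smooth muscle cells in this single-cell dataset of mouse aorta: 7277 of 60871 barcodes. A barcode became a member if it held 500 genes or more and no more than 20% of its UMIs (unique molecular identifiers, each counting 1 captured RNA molecule) came from mitochondrial genes. Its smooth muscle transcripts Acta2, Tagln, Myh11 and Cnn1 had to sum to at least 1.5% of UMIs, with at least 3 UMIs of Itga8 and none of Pln. It could hold at most 5 UMIs summed over Thbd, Ltbp2, Sox9 and Acan, and none of the fibroblast gene Pdgfra, the endothelial gene Pecam1 or the leukocyte gene Ptprc. These measured values chose the members, so the genes of the rule are described below and serve as no result. The study profiled mouse aortic tissue of 3 samples of genotype Best3SMKO, titled KD, and 3 of genotype Best3FL/FL, titled CON. No Cre driver, treatment, age, sex or strain is stated in the labels, nor whether animals were pooled, and all 6 samples were minced, dissociated and run on the 10x Genomics droplet platform. The series title gives aortic disease and the role of VSMCs, the muscle cells of the vessel wall, as its subject.

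The media of the aorta is built of smooth muscle cells layered between sheets of elastin, which the cells secrete together with fibrillins, fibulins, lysyl oxidases and collagens. Large elastic arteries stretch with each heartbeat and recoil, whereas muscular and resistance arteries regulate flow by contracting. Phospholamban, the product of Pln, inhibits the calcium pump of the sarcoplasmic reticulum in heart and smooth muscle. Integrin alpha 8, the product of Itga8, binds the matrix protein nephronectin, the product of Npnt.

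The deposited matrix carries 6 barcode suffixes, called libraries 1 to 6 here, and no label ties a suffix to a sample. No library could therefore be given a genotype, no Best3SMKO value is set against a Best3FL/FL value, and the pooled matrix counts as 1 sample with no test and no p-value. Best3 itself, a gene of the bestrophin chloride channel family, had a UMI in 7 of 7277 members (0.0962%), in 0 of 560 Pln-positive cells (which allows a share of cells with a UMI of up to 0.536%) and in 2 of 6909 Pdgfra-positive cells (0.0289%). Members had a median of 5872 UMIs in library 5 and between 10534 and 12160 in the other libraries. Among all barcodes 414 sequences occurred under more than 1 suffix, and 98 member cells carried such a barcode. Scrublet called 282 members doublets (3.88%), with 7.87% in library 5 and 1.49% to 2.43% elsewhere. All levels are counts scaled to 1e+06 UMIs (CPM) summed over the cells of a group, and they carry no correction for transcript length.

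The promoters of 5 genes are shown because they belong to the genes that mark smooth muscle (Acta2, Myl9), that define the membership (Itga8, Pln) and that vary among the members (Actc1). Each runs 5′ to 3′ from 250 bases before to 50 bases after the RefSeq start on GRCm38.p6, and capitals mark CArG boxes, the sites known to bind serum response factor, and boxes that differ from them by 1 G or C within the core. A CArG box was searched on both strands as CC, 6 bases of A or T, and GG.
Acta2, chr19:34255324-34255623, minus strand: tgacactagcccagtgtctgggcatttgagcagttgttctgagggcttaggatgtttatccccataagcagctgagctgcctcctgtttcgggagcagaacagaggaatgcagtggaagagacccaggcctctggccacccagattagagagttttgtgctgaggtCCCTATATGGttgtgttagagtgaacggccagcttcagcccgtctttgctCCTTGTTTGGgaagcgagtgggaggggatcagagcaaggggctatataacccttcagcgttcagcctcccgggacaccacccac
Myl9, chr2:156775214-156775513, plus strand: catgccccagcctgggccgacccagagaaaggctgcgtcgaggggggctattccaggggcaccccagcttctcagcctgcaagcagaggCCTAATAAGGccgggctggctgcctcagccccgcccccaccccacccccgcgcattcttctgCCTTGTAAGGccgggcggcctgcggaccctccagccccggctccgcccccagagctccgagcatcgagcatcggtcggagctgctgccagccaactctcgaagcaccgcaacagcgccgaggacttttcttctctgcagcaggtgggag
Itga8, chr2:12301895-12302194, minus strand: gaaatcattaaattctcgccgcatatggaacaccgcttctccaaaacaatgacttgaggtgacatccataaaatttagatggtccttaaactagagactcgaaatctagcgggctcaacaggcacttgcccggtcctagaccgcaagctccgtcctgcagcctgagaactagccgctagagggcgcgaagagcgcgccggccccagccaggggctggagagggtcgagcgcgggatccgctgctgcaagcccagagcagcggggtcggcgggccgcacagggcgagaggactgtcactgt
Pln, chr10:53337436-53337735, plus strand: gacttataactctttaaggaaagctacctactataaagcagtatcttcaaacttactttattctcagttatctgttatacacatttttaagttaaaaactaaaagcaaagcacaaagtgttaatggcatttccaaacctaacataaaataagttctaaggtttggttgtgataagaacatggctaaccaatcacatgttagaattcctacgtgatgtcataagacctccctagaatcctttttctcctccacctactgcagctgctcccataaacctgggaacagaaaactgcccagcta
Actc1, chr2:114052826-114053125, minus strand: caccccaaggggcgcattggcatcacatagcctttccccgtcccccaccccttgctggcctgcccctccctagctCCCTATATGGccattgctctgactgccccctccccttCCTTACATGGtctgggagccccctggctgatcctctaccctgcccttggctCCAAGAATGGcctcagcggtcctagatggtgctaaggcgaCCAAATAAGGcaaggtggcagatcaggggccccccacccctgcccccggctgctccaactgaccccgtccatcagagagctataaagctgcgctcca
The Acta2 window held 2 near-boxes, the Myl9 window 1 box and 1 near-box, and the Actc1 window 1 box and 3 near-boxes. The Itga8 and Pln windows held none of these letters. Among 32851 promoter windows of the table, 1.63% held a box and 9.98% held a box or a near-box. Of the 22 contractile and gate genes with a window, 4 held a box (Cnn2, Myl6, Myl9, Srf) and 6 held a box or near-box, against 488 of 27025 genes with a box. These matches describe letters only.

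Membership followed mainly from Itga8 and Pln. Of 53983 kept barcodes, 16430 passed the smooth muscle threshold, and 9884 of these had no Pdgfra, Pecam1 or Ptprc UMI and are called smooth muscle barcodes here. Members were 73.6% of them (95% interval 72.7 to 74.5, counting error only) and 13.5% of kept barcodes. Among the smooth muscle barcodes 1638 held under 3 Itga8 UMIs, 1094 held a Pln UMI and 230 exceeded the Thbd sum. The Itga8 limit alone removed 1328 barcodes with a median of 1881 UMIs, so it removed mostly shallow barcodes. Of these, 448 held no Itga8 UMI and had a median of 1364.5 UMIs. They had 204 CPM of Npnt, 788 CPM of Eln, 548 CPM of Notch3 and 1317 CPM of Dcn. Members had 856, 1608, 55.8 and 322 CPM of these genes. Whether the 448 barcodes were another kind of cell was not tested. Just inside that limit, 391 members with 3 Itga8 UMIs had 581 CPM of Npnt and 274 CPM of Mfap4, and the 425 barcodes with 2 Itga8 UMIs just outside it had 476 and 249 CPM. The 412 barcodes with exactly 1 Pln UMI had 803 CPM of Npnt and 117 CPM of Notch3, against 856 and 55.8 CPM in members. At the Thbd limit, 89 members with a sum of 5 had 1816 CPM of Eln, and 43 barcodes with a sum of 6 had 1809 CPM.

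The name was set beside its markers that the rule did not use, but the Itga8 limit may in part fix these values. Members needed at least 3 Itga8 UMIs, while 337 of the 560 Pln-positive cells, which had no such limit, reached it. With that limit on both sides and all cells thinned to 5000 UMIs, Npnt no longer passed the size rule given below. The rule fixed high levels of Acta2, Myh11 and Itga8, which are given as a description: Acta2 (smooth muscle actin) and Myh11 (smooth muscle myosin heavy chain) stood at 21007 and 6883 CPM in members, and between 666 and 888 CPM and 184 and 267 CPM in Pdgfra-positive, Pecam1-positive and Ptprc-positive cells outside the gate. With every cell thinned to 5000 UMIs, Npnt had a UMI in 94.5% of 5896 members, 50.3% of 515 Pln-positive cells and 11.3% of 5464 Pdgfra-positive cells. Mylk4, a myosin light chain kinase family gene, had one in 62.8% of members, 11.3% of Pln-positive cells and 3.26% of Pdgfra-positive cells. Thbd-Ltbp2 cells were close to members in Npnt (90.4% of 228 thinned cells), Mfap4 (55.3%) and Eln (93.9%, against 96.5% of members) and held Mylk4 in 37.3%. Without thinning the Npnt shares were 95.1%, 60.7% and 16.3%, at median depths of 10066, 10197 and 7865 UMIs. Mfap4, a microfibril-associated glycoprotein gene, does not mark smooth muscle alone: it had a UMI in 61.3% of thinned members and 15.5% of Pln-positive cells, and in 63.7% of Pdgfra-positive cells. Markers of other cells were low, with summed levels of 22.0 CPM over 6 endothelial genes (12.6 to 47.1 CPM by library), 99.7 CPM over 7 leukocyte genes (49.2 to 172 CPM) and 845 CPM over 7 fibroblast genes (595 to 1247 CPM, and 26674 CPM in Pdgfra-positive cells). The 6 pericyte markers summed to 3496 CPM in members and 2872 CPM in Pln-positive cells, and 5 of them were above 30 CPM in members: Rgs5 (2835 CPM), Cspg4 (363 CPM), Abcc9 (198 CPM), Notch3 (55.8 CPM) and Kcnj8 (43.2 CPM). Higd1b had 1.83 CPM in members and 29.9 to 66.3 CPM by library in Pln-positive cells.

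The share of members differed between libraries by more than counting error. It was 67.7% of smooth muscle barcodes in library 1, 65.5% in library 2, 82.4% in library 3, 56.2% in library 4, 75.6% in library 5 and 81.7% in library 6. Pln-positive cells passed the same gates with at least 2 Pln UMIs and no Itga8 limit. They were 15.8% in library 4 and 13.0% in library 2, where members were least frequent, against 2.90% to 4.71% in the other 4 libraries. Members hold no Pln UMI and both shares are of the same smooth muscle barcodes. A higher Pln-positive share thus lowers the member share by construction. Dissection, genotype and depth cannot be told apart in these shares. In all, 560 cells were Pln-positive, and 230 were Thbd-Ltbp2 cells, which passed the smooth muscle gates with a Thbd sum over 5.

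**Figure D1:**
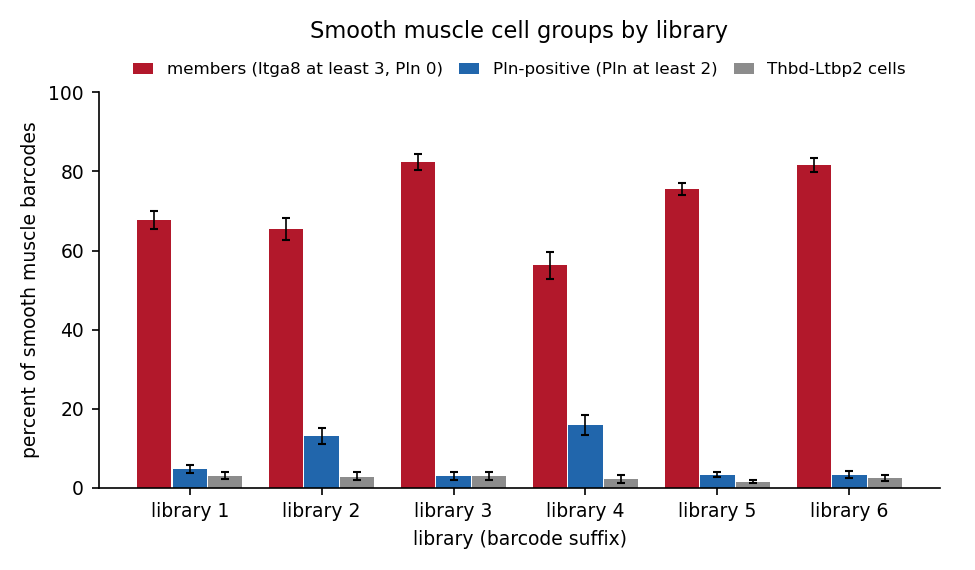
Bars give members, Pln-positive cells and Thbd-Ltbp2 cells as percent of smooth muscle barcodes in each of the 6 libraries, with exact 95% binomial intervals that cover counting error only. Members range from 56.2% in library 4 to 82.4% in library 3, and Pln-positive cells are highest in libraries 4 and 2.

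Against Pln-positive cells, the members carried more elastic fibre, fibrillar collagen and nephronectin-integrin transcripts and fewer Notch, vasoactive receptor and immediate early transcripts, and most contractile genes did not pass the size rule. With cells of 1 Pln UMI added to the Pln-positive cells, none of the 8 higher collagens, none of the 5 higher nephronectin and integrin genes and 2 of the 9 higher elastic fibre genes (Mfap4, Mfap5) still passed. A gene is called higher or lower when the pooled CPM ratio, with 2 CPM added to both sides, was at least 2 or at most 0.5, in the same direction in all 6 libraries, among genes with at least 30 CPM on either side. By this size rule 4.59% of 5146 genes were higher and 7.09% were lower in members. Since Pln chose both groups and Itga8 chose the members, these counts and those of the lists below are a description with no test. Libraries 2 and 4 held 147 and 133 of the 560 Pln-positive cells, but 738 and 473 of the 7277 members. The pooled ratios therefore weigh the libraries differently on the 2 sides. Of 250 genes from 19 functional lists, 40 were higher and 55 lower, and the list median log2 ratio was -0.09, against 0.01 over all genes tested.

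**Figure D2:**
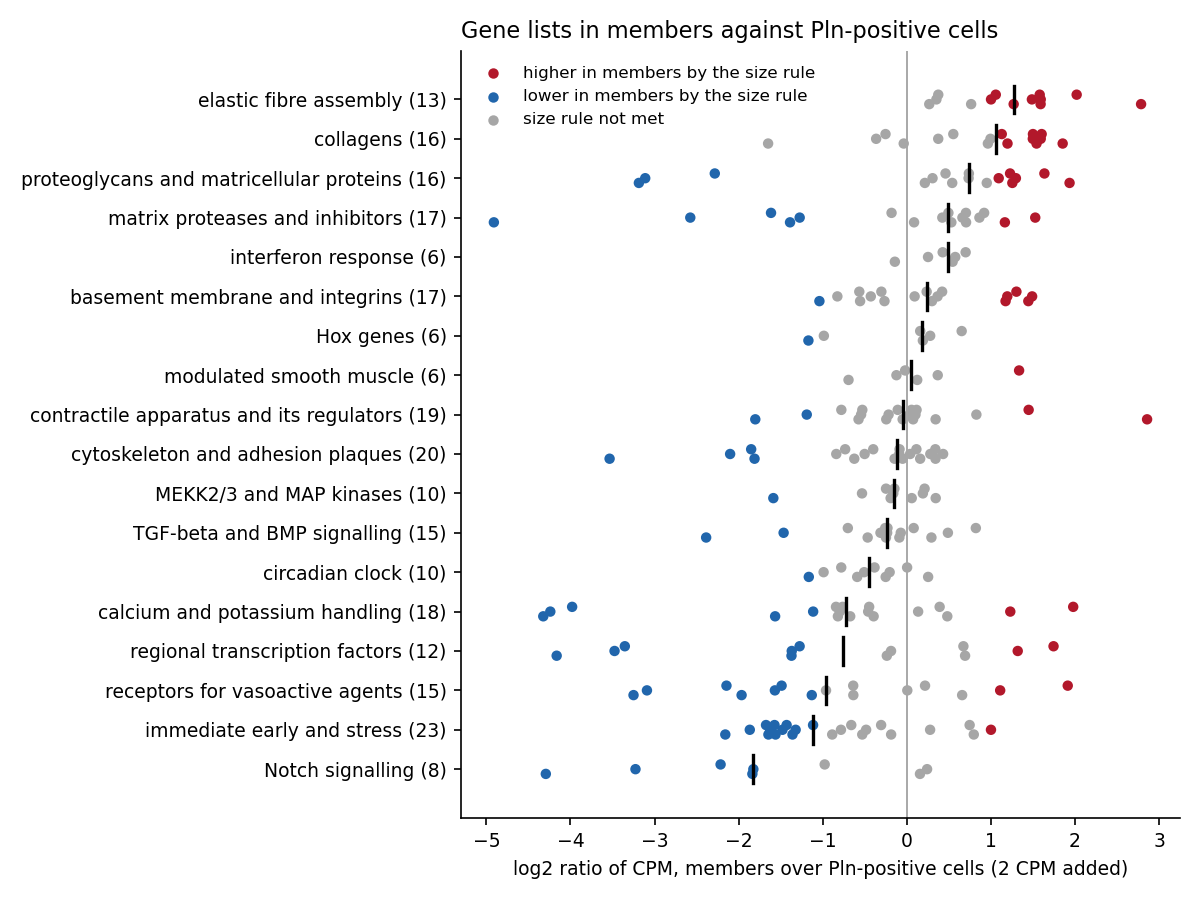
Each point is a gene of a list, placed by the log2 ratio of its CPM in members over Pln-positive cells, with 2 CPM added; the vertical line is the list median and the number in brackets counts the genes tested. Elastic fibre assembly has the highest median, 1.27, and Notch signalling the lowest, -1.83; lists with fewer than 6 genes tested are not drawn.

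Of 19 contractile genes tested outside the rule, 2 were higher (10.5%), 2 were lower (10.5%) and 15 did not pass the size rule. Over all genes tested 4.59% were higher and 7.09% lower. Both groups had to pass the same threshold on Acta2, Tagln, Myh11 and Cnn1, so similar contractile levels were in part fixed beforehand. Myl9, a regulatory myosin light chain gene, had 5797 to 6736 CPM, median 6203, in members and 5969 to 7286 CPM, median 6482, in Pln-positive cells. Myocd, the coactivator of smooth muscle genes, had 114 to 221 CPM, median 162, in members and 163 to 236 CPM, median 191, in Pln-positive cells. For both genes the library values of the 2 groups overlapped. Mylk4 was 7.25 times as high in members, with 244 to 356 CPM, median 338, in members and 14.8 to 91.8 CPM, median 48.2, in Pln-positive cells. Every member library exceeded every Pln-positive library for Mylk4. Mylk, the main smooth muscle myosin light chain kinase gene, ran the other way, with 1398 to 1821 CPM, median 1497, in members and 2513 to 3948 CPM, median 3283, in Pln-positive cells. Its inverse ratio was 2.28, and the groups did not overlap. Cnn3 (calponin 3) was higher at 359.6 against 130.4 CPM, and Mustn1 lower at 563 against 1966 CPM. In the list of the cytoskeleton and adhesion plaques, 0 of 20 genes were higher and 4 were lower, among them the intermediate filament genes Des (218 against 940.2 CPM) and Synm (171 against 623 CPM) and the adaptor gene Sorbs2 (124 against 1461 CPM). Vimentin (Vim), the filament of mesenchymal cells, had 5946 against 4698 CPM and did not pass.

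Of 13 elastic fibre genes tested, 9 were higher and none lower. Tropoelastin (Eln) had 1422 to 1894 CPM, median 1643, in members and 407 to 832 CPM, median 593, in Pln-positive cells. No Pln-positive library reached the lowest member library, and the pooled ratio was 2.80. Mfap4 was 6.90 times as high, with 317 to 427 CPM, median 381, in members and 20.8 to 71.7 CPM, median 58.5, in Pln-positive cells. Fbln5, which encodes a fibulin needed for elastic fibre assembly, had 364 to 428 CPM, median 373, in members and 81.9 to 275 CPM, median 124, in Pln-positive cells. Its lowest member library exceeded its highest Pln-positive library. Fibrillin 1 (Fbn1, 148 against 47.6 CPM), Mfap5 (169 against 40.1 CPM), the latent TGF-beta binding proteins Ltbp3 (217 against 88.8 CPM) and Ltbp4 (593 against 197 CPM) and the lysyl oxidase-like enzymes Loxl1 (221 against 105 CPM) and Loxl3 (38.2 against 18.1 CPM) completed the list. The Loxl3 call was lost without library 1, 3, 4 or 5, with 10 CPM added and with all cells thinned to 5000 UMIs, among others. That of Loxl1 was lost without library 1 or 4 and with the 3% smooth muscle threshold, among others. The cross-linking enzyme Lox (99.3 against 76.1 CPM), Emilin1 (104 against 81.1 CPM) and the fibulin gene Efemp2 (103 against 85.2 CPM) did not pass. Elastin RNA was not confined to members: Pdgfra-positive cells had 396 CPM and Pecam1-positive cells 639 CPM.

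**Figure D3:**
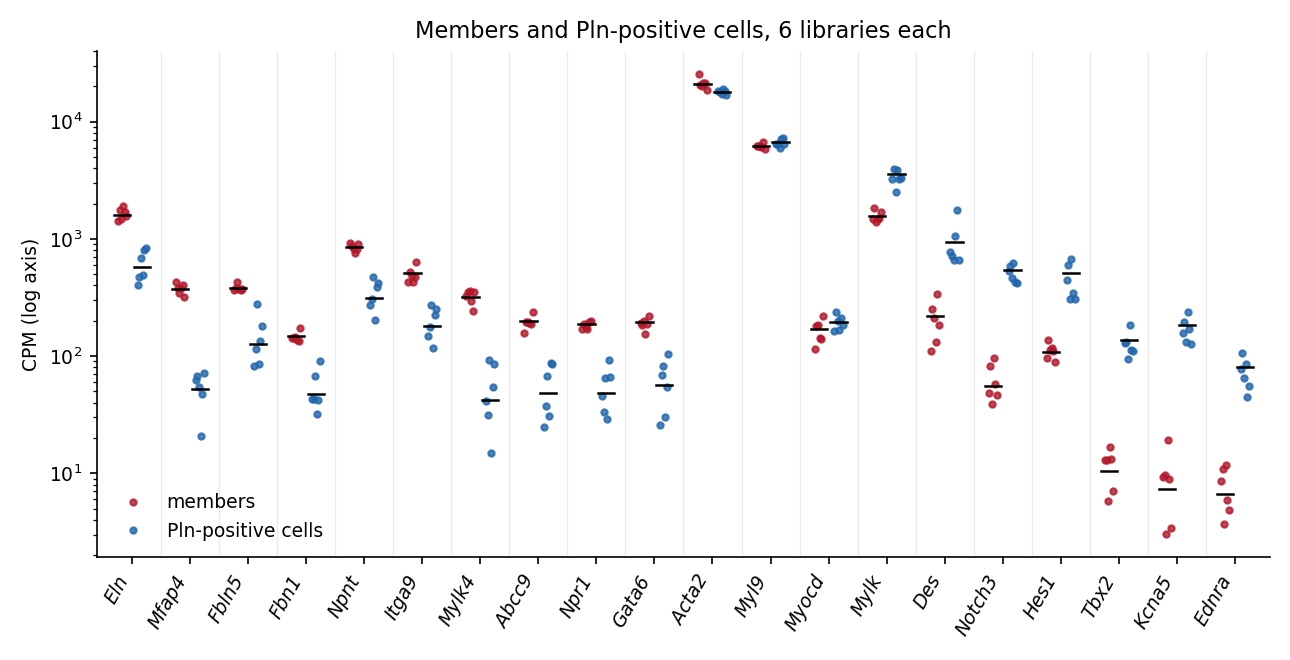
Points give CPM (log axis) of 20 genes in each of 6 libraries, members left and Pln-positive cells right, and black lines give the pooled level. The groups are separate for Eln, Mfap4 and Mylk4 on one side and for Mylk, Notch3 and Kcna5 on the other, and overlap for Myl9 and Myocd.

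Of 16 collagen genes 8 were higher and none lower. Col3a1 had 711 to 982 CPM, median 814, in members and 192 to 461 CPM, median 276, in Pln-positive cells, and Col1a2 had 937 against 330.0 CPM pooled. Col15a1 had the largest ratio of the list, 3.61. The basement membrane collagens Col4a1 (591 against 704 CPM) and Col4a2 (342 against 441 CPM) did not pass, so the higher genes were fibrillar, fibril-associated and microfibrillar chains and Col15a1. Among basement membrane and integrin genes, 5 of 17 were higher and Lama5 was lower. Npnt had 757 to 928 CPM, median 843, in members and 205 to 476 CPM, median 346, in Pln-positive cells, with a pooled ratio of 2.72. The integrin genes Itga9 (510.1 against 180.3 CPM), Itga5 (233 against 101 CPM), Itgb3 (72 against 28 CPM) and Itgb5 (397 against 175 CPM) were higher as well. Itgb1, the beta chain shared by Itga8, Itga9 and Itga5, had 1348 against 1095 CPM and did not pass.

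Among proteoglycan and matricellular genes 6 of 16 were higher and 3 lower. Periostin (Postn) had 555 to 786 CPM, median 678, in members and 87.9 to 271 CPM, median 199.9, in Pln-positive cells, with no overlap. Biglycan (Bgn, 2832 against 1327 CPM), versican (Vcan, 179 against 56.2 CPM), Ccn2 (1682 against 717 CPM), Tnc (87.5 against 35.5 CPM) and Tnxb (144 against 57.4 CPM) were the other higher genes. The Tnc call was lost without library 2, with at most 10% mitochondrial UMIs and with all cells thinned to 5000 UMIs, among others. That of Bgn was lost without library 4, among others. Sparcl1, a matricellular gene of the SPARC family, was 9.10-fold lower in members, with 227 to 588 CPM, median 448, in members and 2240.2 to 4108 CPM, median 3574, in Pln-positive cells. Thrombospondin 1 (Thbs1, 60.8 against 540.3 CPM) and asporin (Aspn, 77.5 against 385 CPM) were the other lower genes. Among matrix proteases and inhibitors 2 of 17 were higher (Mmp3, Adamts2) and 5 lower. Adamts4, an aggrecan- and versican-cleaving protease gene, had 1.43 to 6.22 CPM, median 3.0, in members and 34.4 to 451 CPM, median 79.4, in Pln-positive cells. The lower genes also included Adamts1 (404 against 1061 CPM), Adamts5 (113 against 349.9 CPM), Adamts9 (34.8 against 87.1 CPM) and Timp4 (70.3 against 429 CPM). Timp3, a matrix-bound inhibitor, had 1173 against 1330.3 CPM and did not pass.

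Ion handling separated the groups by channel. Of 18 calcium and potassium genes 2 were higher, both parts of the ATP-sensitive potassium channel: its sulfonylurea receptor Abcc9 had 157 to 238 CPM, median 193, in members and 24.7 to 87.8 CPM, median 52.6, in Pln-positive cells. Its pore gene Kcnj8 had 40.6 to 45 CPM, median 43.1, in members and 8.74 to 44.5 CPM, median 12.7, in Pln-positive cells, and the groups overlapped in library 5 alone, where members had 45 CPM and Pln-positive cells 44.5 CPM. Kcnj8 no longer passed under 7 alternatives: without doublets, without cells rich in Dcn, with the 3% smooth muscle threshold, with at least 5 Itga8 UMIs, with 10 CPM added, at a minimum of 100 CPM, and with at least 1 Pln UMI. The 5 lower genes were the voltage-gated potassium channel gene Kcna5, calsequestrin 2 (Casq2), the calcium channel genes Cacna1h and Cacna1c, and the plasma membrane calcium pump gene Atp2b1. Kcna5 had 3.01 to 19.1 CPM, median 9.08, in members and 127 to 238 CPM, median 163, in Pln-positive cells. Casq2 had 1.12 against 56.8 CPM, and Cacna1c 36.9 against 82.1 CPM. The calcium pump that Pln regulates, Atp2a2, had 587 against 802 CPM and did not pass, nor did the large-conductance potassium channel genes Kcnma1 (100.3 against 91.2 CPM) and Kcnmb1 (196 against 149 CPM).

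In the list of receptors for vasoactive agents, which also holds an enzyme and signalling regulators, 7 of 15 genes were lower and 2 were higher. The endothelin receptor gene Ednra had 3.69 to 11.7 CPM, median 7.30, in members and 44.5 to 107 CPM, median 71.8, in Pln-positive cells, and the endothelin B receptor gene Ednrb had 2.43 against 35.7 CPM. The purinergic channel gene P2rx1 (75.7 against 228 CPM), the nitric oxide receptor subunit gene Gucy1a1 (273 against 600.0 CPM) and the G protein regulators Rgs4 (86.7 against 390.2 CPM) and Rgs7bp (129 against 365 CPM) were lower too. The natriuretic peptide receptor gene Npr1 had 169 to 198 CPM, median 183, in members and 28.9 to 92.9 CPM, median 55.5, in Pln-positive cells, and prostacyclin synthase (Ptgis) 1291 against 597 CPM. Both of these were higher in all 6 libraries. The Ptgis call was lost with at least 3 Itga8 UMIs in Pln-positive cells, among others. With at least 1 Pln UMI the calls of both Npr1 and Ptgis were lost.

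Notch signalling had the lowest list median, -1.83 on the log2 scale, and regional transcription factors had -0.76. Among regional transcription factors, Gata6 (195 against 56.8 CPM) and Tbx18 (80.1 against 30.9 CPM) were higher and 6 of 12 were lower. Tbx2 had 5.81 to 16.7 CPM, median 13, in members and 94 to 183 CPM, median 120.4, in Pln-positive cells, Tbx3 had 2.0 against 69.6 CPM, Meox2 2.12 against 40.1 CPM and Nr2f2, a nuclear receptor gene of venous identity, 132 against 321 CPM. Of 8 Notch genes 5 were lower and none higher. Notch3, the main Notch receptor of arterial smooth muscle, had 39.3 to 96.4 CPM, median 53.3, in members and 419.8 to 626 CPM, median 498, in Pln-positive cells. Its targets Hes1 (108 against 506 CPM) and Nrarp (0.951 against 55.8 CPM), the receptor gene Notch1 (14.1 against 55.5 CPM) and the ligand gene Jag1 (32.4 against 119.8 CPM) were lower, while Heyl (113 against 95.3 CPM) and Notch2 (47.6 against 42.5 CPM) did not pass. Of 15 TGF-beta and BMP genes, Tgfb3 and Bmp2 were lower. Immediate early and stress genes were lower for 12 of 23 and higher for 1, the heat shock gene Hspa1b, whose call was lost under 9 alternatives, among them leaving out library 4 or library 6. Junb had 399 to 856 CPM, median 576, in members and 1111 to 2225 CPM, median 1709.8, in Pln-positive cells, and Atf3 had 433 against 1338 CPM, while Fos (2438 against 3854 CPM) did not pass. Immediate early genes are known to be induced by tissue dissociation, and whether handling contributed was not tested.

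Outside the lists, the 10 largest ratios included those of Wnt16, Rbp4, Ptprz1, Dsp, Ccn5, Sema3d, Gxylt2, Ccdc42 and Gabra3. Wnt16, a Wnt ligand gene, had 37.5 to 70.1 CPM, median 51.6, in members and 1.34 to 24 CPM, median 3.86, in Pln-positive cells. Rbp4, the retinol carrier gene, had 466 to 754 CPM, median 617, in members and 32.6 to 295 CPM, median 82.2, in Pln-positive cells, and for it and Wnt16 the members exceeded Pln-positive cells in all libraries. Desmoplakin (Dsp) had 111 against 15 CPM, and the semaphorin gene Sema3d 82.7 against 12.6 CPM. The 10 smallest ratios belonged to Olfr558, Rergl, Nrip2, Scn4b, S1pr3, Myl1, Ndufa4l2, Tcf15, Lrrc10b and Cacna1g. Olfr558, an olfactory receptor gene, had 0.0683 to 3.52 CPM, median 1.59, in members and 148 to 356 CPM, median 227, in Pln-positive cells. The sphingosine-1-phosphate receptor gene S1pr3 had 11.9 against 388 CPM. Scn4b (0.386 against 80.6 CPM) and Rergl (0.331 against 124 CPM) were near 0 in members.

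The counts of this contrast depended most on how Pln-positive cells were defined. With Pln-positive cells defined by at least 1 UMI, 4 list genes were higher, and with Itga8 of at least 3 UMIs required on both sides 26 were. Of 115 named calls, 91 were kept with the Itga8 limit on both sides (Mfap4, Eln, Fbln5, Npnt and Mylk4 among them, and Fn1, Bgn, Itga5, Itgb3 and Itgb5 not). With that limit and all cells thinned to 5000 UMIs 92 were kept, and Npnt was lost as well. With at least 1 Pln UMI 63 were kept, and Eln, Npnt, Fbn1, Fbln5, Postn, Mylk and Gata6 were among those lost.

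Against Thbd-Ltbp2 cells, members had lower levels of 16 list genes, among them Mfap5, Mgp and Fbln5, and none of the 19 contractile genes tested passed the size rule. Of 5012 genes, 0.0399% were higher in members, namely Igkc and Btc, and 1.38% were lower. The direction had to hold in the 5 libraries with at least 20 Thbd-Ltbp2 cells. The pooled levels and the ranges given below also take in library 4, with 18 Thbd-Ltbp2 cells. Igkc is an immunoglobulin gene that stood at 1065 CPM in members of library 5 and at 6.18 to 26.4 CPM elsewhere. Btc, which encodes the growth factor betacellulin, had 36.3 to 77.4 CPM, median 37, in members and 4.48 to 28.7 CPM, median 13.4, in Thbd-Ltbp2 cells. None of 245 list genes was higher in members and 16 were lower, 5 of them in the elastic fibre list (Fbln2, Fbln5, Efemp1, Mfap5, Loxl2). Mfap5 had 142 to 221 CPM, median 159, in members and 380.2 to 754 CPM, median 444, in Thbd-Ltbp2 cells. Fbln5 had 364 to 428 CPM, median 373, in members and 625 to 1015 CPM, median 765, in Thbd-Ltbp2 cells, whereas Eln (1608 against 1703 CPM) and Mfap4 (369.8 against 476 CPM) did not pass. Matrix Gla protein (Mgp), an inhibitor of calcification, had 4131 to 6313 CPM, median 5285, in members and 6409.8 to 32313 CPM, median 10682, in Thbd-Ltbp2 cells. The adhesion gene Vcam1 (17.7 against 60.2 CPM), osteoprotegerin (Tnfrsf11b, 27.6 against 75.2 CPM), the calcium-activated chloride channel gene Ano1 (39.8 against 93.7 CPM) and the metalloproteinase gene Mmp2 (21.2 against 63.3 CPM) were lower in members. Of 10 genes of modulated smooth muscle tested, 4 were lower (Ly6a, Vcam1, Tnfrsf11b, S100a4). Outside the lists, Prrx2 (3.97 against 52.9 CPM), Igfbp2 (57.7 against 407 CPM), Gpc3 (11.6 against 85.8 CPM) and Frzb (10.4 against 67.7 CPM) were lower. The Thbd sum chose these cells, and 7.83% of them were called doublets, against 3.88% of members, with 1716 against 845 CPM of fibroblast markers. The part of fibroblast RNA in this contrast was not tested. With cells rich in Dcn left out of every group, Dcn, Loxl2, Efemp1, Col14a1, Adamtsl1 and Ly6a no longer passed, and Ly6a had a log2 ratio of 0.15. With all cells thinned to 5000 UMIs, Fbln2, Loxl2, Efemp1 and Col14a1 lost their call. With a smooth muscle threshold of 3%, 5 list genes were lower. Fbln2, Fbln5, Efemp1, Loxl2, Mgp, Vcam1 and Ano1 were among those that lost their call there, and Mfap5 kept it. Fbln5 was also lost without library 6.

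Within the members, spread between cells was taken at equal depth. Each of 5896 members with at least 5000 UMIs was thinned to 5000, and a gene was called over-dispersed when its variance was at least 1.5 times its mean in every library. This held for 3.01% of 7504 genes and for 83 of 263 list genes, and genes of high mean pass more easily, because variance over mean grows with the mean for the same relative spread. Immediate early and stress genes passed for 20 of 22, proteoglycan and matricellular genes for 14 of 18 and contractile genes for 12 of 22. Calcium and potassium genes passed for 0 of 16 and Hox genes for 0 of 10. Malat1, Gm26870, Hspb1, Rgs5, Mgp and Dcn had the 6 highest medians, at 43.0, 35.9, 30.7, 30.3, 29.2 and 27.4. Thbs1, at a mean of only 0.378 UMIs, reached 12.5. Rgs5, which encodes a regulator of G protein signalling, and fibronectin (Fn1, 12.4) were correlated across cells, with a Spearman coefficient of 0.22 to 0.54 by library (median 0.44). Cells of a library share its preparation, so this is a description.

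**Figure D4:**
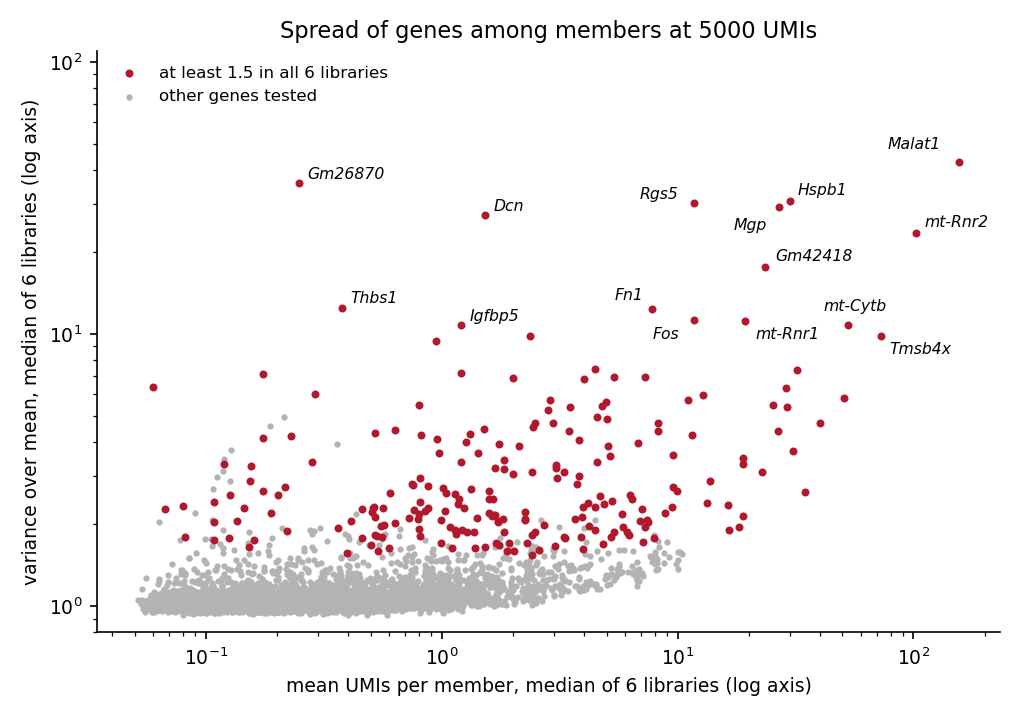
Points give, for each of 7504 genes, the variance over mean of UMIs among members thinned to 5000 UMIs against the mean, both as medians of 6 libraries on log axes. Red points are at least 1.5 in all 6 libraries, and the 15 highest are named, led by Malat1 at 43.0.

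Rgs5-high and Rgs5-low members differed in their Hox genes. This division was chosen after the values were seen, and it is a range of 1 gene, not a cell type: 1721 thinned members (29.2%) had at least 15 Rgs5 UMIs, 2774 had at most 2, and 1401 lay between. By library the Rgs5-high share was 14.2%, 16.5%, 31.7%, 16.5%, 32.4% and 43.9% in libraries 1 to 6. Among 4844 genes, 0.351% (17) were higher and 0.145% (7) lower in Rgs5-high members. Hoxc10 had 34.5 to 64 CPM in Rgs5-high members and 0.463 to 3.52 CPM in Rgs5-low members. Hoxa10 had 11.8 to 56.9 CPM in Rgs5-high and 0.463 to 2.09 CPM in Rgs5-low members. Neither gene overlapped between the sides in any pair of libraries. Hoxb2 ran the other way, with 20.7 to 34.5 CPM in Rgs5-high and 43.7 to 60.5 CPM in Rgs5-low members. Hox genes of higher number are known to mark more posterior body levels, and those of lower number more anterior ones.

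The other Hox genes, which were mostly too low for the size rule, differed by cluster as well as by number. Pooled levels in Rgs5-high against Rgs5-low members were 26.5 against 1.73 CPM for Hoxa9, 18.2 against 1.73 CPM for Hoxc9, 22 against 2.96 CPM for Hoxc8 and 23.6 against 7.21 CPM for Hoxc6. Each of these 4 genes was higher in Rgs5-high members in all 6 libraries. Within the A cluster, Hoxa3 had 19.2 against 29.6 CPM, Hoxa5 50.9 against 57.2 CPM, Hoxa6 3.37 against 1.66 CPM and Hoxa7 64.4 against 63.8 CPM, and the value of Hoxa9 given above was the higher one in Rgs5-high members. Every listed gene of the B cluster, Hoxb2 to Hoxb8, was lower in Rgs5-high members in the pooled values. No B gene beyond Hoxb8 was in the list. Hoxb3 had 16.6 against 31.7 CPM, Hoxb4 24.2 against 40.3 CPM, Hoxb5 12.2 against 25.7 CPM, Hoxb6 11.4 against 20 CPM, Hoxb7 12.8 against 20.4 CPM and Hoxb8 9.88 against 14.1 CPM. In the C and D clusters the anterior genes were higher as well, at low counts: Hoxc4 had 5.35 against 1.51 CPM and Hoxd4 2.32 against 0.433 CPM, beside Hoxd8 with 12.4 against 0.649 CPM. Where in the aorta the cells came from is not recorded by cell, and this was not tested.

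Other genes moved with Rgs5 in all 6 libraries. Fn1 had 2115 to 3934 CPM in Rgs5-high and 597 to 1004 CPM in Rgs5-low members. P2rx1 (137 against 49.2 CPM), the fibulin gene Fbln7 (94.6 against 16.7 CPM), tenascin R (Tnr, 46.6 against 1.95 CPM), the laminin chain gene Lamc3 (49.7 against 17.6 CPM) and palladin (Palld, 445 against 199 CPM) were higher. Col14a1 was lower, with 42.1 to 68.3 CPM in Rgs5-high and 119 to 146 CPM in Rgs5-low members, as was S100a4 (95.1 against 196 CPM). Markers of the elastic type did not pass: Eln had 1427 against 1725 CPM, Npnt 804 against 888 CPM and Mylk4 226 against 354 CPM. Of the pericyte markers, Kcnj8 had 55.7 against 32.9 CPM, Abcc9 205 against 186 CPM and Higd1b 2.67 against 1.44 CPM. Without doublets and members rich in Dcn, 16 of the 17 higher genes and all 7 lower genes still passed.

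**Figure D5:**
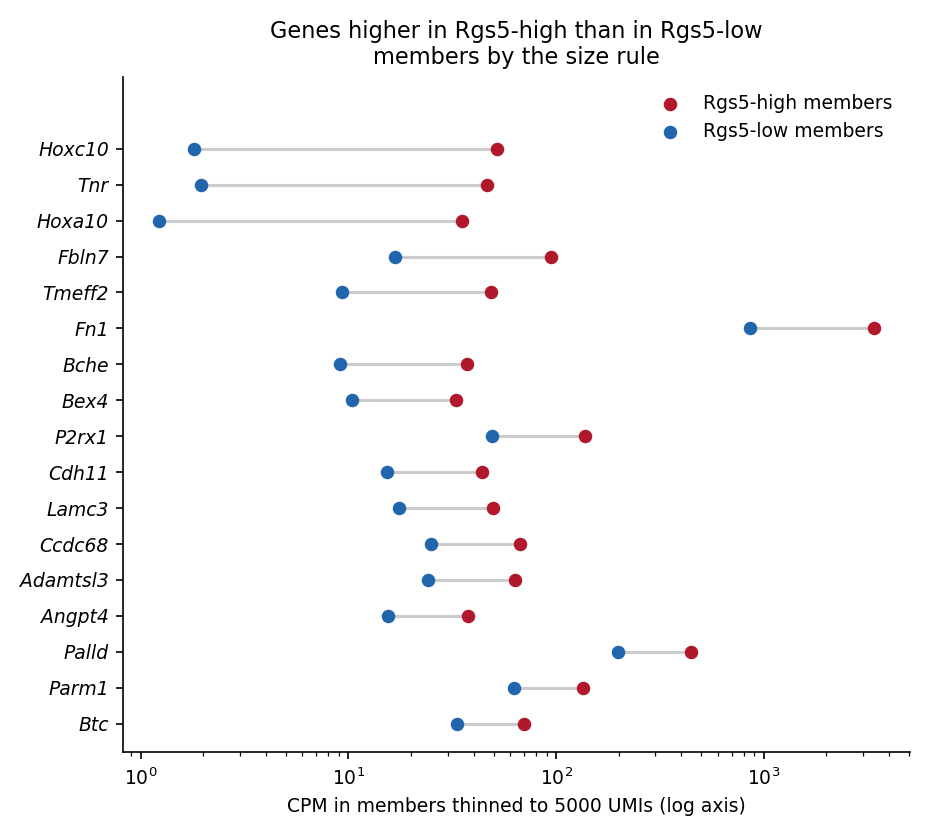
For each of the 17 genes higher in Rgs5-high members by the size rule, points give CPM (log axis) in Rgs5-high members and in Rgs5-low members, all thinned to 5000 UMIs. Hoxc10, Tnr and Hoxa10 show the widest gaps, and the 7 lower genes are not drawn.

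A division by the Hox genes themselves set apart few genes. Summed over 14 Hox genes of groups 5 to 10, 2236 thinned members (37.9%) had at least 2 UMIs, 2028 (34.4%) had none and 1632 had exactly 1. The sum mixes genes that were higher in Rgs5-high members (such as Hoxa10 and Hoxc10), lower (Hoxb5 to Hoxb8) or nearly equal (Hoxa7). How far this mix lowered the counts below was not tested. Rgs5 itself had 3510 CPM in Hox-positive and 1935 CPM in Hox-zero members. It was higher in all 6 libraries but did not pass the size rule. Outside the Hox genes, 0.0416% of 4809 genes were higher in Hox-positive members (Tmeff2, Fbln7) and 0.146% were lower (Tnnt2, Actc1, Enpp2, Igfbp2, Bmp3, Actg2, Lgals3). Actc1 had 15.1 CPM in Hox-positive against 44.5 CPM in Hox-zero members pooled. It was nearly equal in library 2 (68.4 against 69.7 CPM), library 4 (30.5 against 31.9 CPM) and library 3 (0.426 against 0.570 CPM). Tnnt2, the cardiac troponin T gene, had 8.86 to 21.1 CPM in Hox-positive members and 18.6 to 334 CPM in Hox-zero members of the 6 libraries. Actg2, smooth muscle gamma actin, had 143 to 276 CPM in Hox-positive and 271 to 508 CPM in Hox-zero members. Within each library the Hox-zero value was the higher one for both genes. Fbln7 and Tmeff2 were also among the genes higher in Rgs5-high members. Of 222 list genes tested, 2 were lower (Actg2, Lgals3) and 0 higher, and the count of 2 moved between 0 and 4 with the settings.

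A small set of members held Tnnt2, and in 4 of 6 libraries a much smaller share of them had a Hox UMI. This division was also chosen after the values were seen. In all, 216 thinned members (3.66%) had at least 2 Tnnt2 UMIs, 241 had 1 and 5439 had none. Library 2 held 10.7% and the other libraries 1.76% to 4.62%. A UMI of the 14 Hox genes was found in 35.6% of Tnnt2-positive members (95% interval 29.3 to 42.4) and in 67.2% of Tnnt2-zero members (65.9 to 68.4), with 20% against 61.6% in library 2. Libraries 1, 3 and 5 had 34.1% to 39.1% in Tnnt2-positive and 65.3% to 69.0% in Tnnt2-zero members, whereas library 4 had 75% against 73.0% and library 6 66.7% against 68.0%. Few Tnnt2-positive members stand behind some of these shares. Library 3 had 22 (95% interval 17.2 to 59.3), library 4 had 8 (34.9 to 96.8) and library 6 had 24 (44.7 to 84.4). By the size rule 0.44% of 4995 genes were higher and 0.3% were lower. Pooled levels took in all 6 libraries, and the direction had to hold in the 5 libraries with at least 20 Tnnt2-positive members. Actg2 had 527 to 1996 CPM in Tnnt2-positive and 191 to 361 CPM in Tnnt2-zero members of these 5 libraries. The potassium channel gene Kcnk3 (116 against 13.5 CPM), follistatin (Fst, 81.5 against 14.7 CPM), Bmp3 (93.5 against 23.6 CPM) and Igfbp2 (124 against 48.9 CPM) were higher too. The 8 Tnnt2-positive members of library 4, which enter these pooled levels, had 550 CPM of Kcnk3 and 700 CPM of Fst. Timp4 (13.9 against 78.3 CPM), Hoxa7 (16.7 against 70.9 CPM), Fn1 (869 against 1755 CPM) and P2rx1 (30.6 against 77.4 CPM) were lower. Library 2 held 75 of the 216 Tnnt2-positive but 584 of the 5439 Tnnt2-zero members, so the pooled levels weigh it differently on the 2 sides. Fn1 had 253 against 1141 CPM in library 2 and 629 against 1173 CPM in library 1. In libraries 3, 5 and 6 it had 1350 to 1548 against 2022 to 2141 CPM. Acta2 had 21841 against 20811 CPM and Eln 1171 against 1617 CPM, and neither passed. Among all members the cardiomyocyte list summed to 153 CPM, with Ryr2 at 70.6, Tnnt2 at 51.2, Actc1 at 28.8, Tnni3 at 2.0 and Myh6 at 0.413 CPM. Without doublets and members rich in Dcn, 14 of 22 higher and 11 of 15 lower genes still passed.

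Members also differed in their level of immediate early genes. Of the thinned members, 1803 (30.6%) had at least 15 Fos UMIs, 1894 (32.1%) had at most 4 and 2199 lay between, again a division chosen after the values were seen. Among 4869 genes 1.6% were higher and 0.123% lower in Fos-high members, and 16 of 22 immediate early and stress genes were higher. Socs3 (279 against 30.4 CPM), Egr1 (1818 against 250.3 CPM), Junb (1117 against 171 CPM) and Klf2 (644 against 110.3 CPM) were examples. The smooth muscle long non-coding RNA gene Carmn (53.7 against 152 CPM) and Igfbp2 (27.8 against 76.9 CPM) were lower. Fos-high members had a median of 4.69% mitochondrial UMIs and 4.38% doublets, and Fos-low members 6.23% and 1.32%. Fibroblast markers summed to 990.4 CPM in Fos-high and 612 CPM in Fos-low members, and Dcn (473 against 170.1 CPM), Lum (32.2 against 13.5 CPM) and Serpinf1 (80.6 against 33.8 CPM) were among the higher genes. Without doublets and members rich in Dcn, 70 of 78 higher and 5 of 6 lower genes still passed. The part of handling or of fibroblast RNA in these levels was not tested.

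A small share of members was rich in Dcn and other fibroblast markers. Dcn, a proteoglycan gene of fibroblasts, had at least 5 UMIs in 218 of the thinned members (3.70%), 1 to 4 in 2726 and none in 2952. Scrublet called 59.6% of the Dcn-rich members doublets, against 1.87% and 0.881% of the others. Their fibroblast markers summed to 7560 CPM, against 442 CPM in members with no Dcn. Dcn itself ranged from 125 CPM in library 6 to 605 CPM in library 5 among all members.

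The level of single genes in members differed between libraries. Among list genes with at least 50 UMIs in each library, Cd74, the invariant chain of class II antigen presentation, spread widest, by 9.52 times. It had 210 CPM in library 5 and 22.0 CPM in library 6. Ly6a (6.47 times), Ly6e (5.79), Tgfbi (5.11), Dcn (4.82) and Fbln1 (4.68) followed, each highest in library 5 and lowest in library 6. The class I antigen presentation genes H2-K1 (1.57 times), H2-D1 (1.42) and B2m (1.36) spread little, and other class II genes are not given here. The narrowest were Ppp1r14a, the gene of a myosin phosphatase inhibitor (1.08 times), Kcnj8 (1.11), Myl6 (1.12) and Lamp2 (1.13). Rgs5 ranged from 1261 CPM in library 1 to 4459 CPM in library 6, and Eln from 1422 to 1894 CPM. Library 5 had the lowest depth and the highest doublet share, and their part in its values was not tested.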

How the data were processed

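Single-cell RNA was measured in aortic tissue of 6 mouse samples. The deposited matrix holds UMI counts per gene and barcode, and per the file headers it was written by cellranger 6.1.2. The submitters' processing notes name Cell Ranger 3.1.0, Seurat 3.1.1, bcl2fastq 5.01 and GRCm38, so the notes and the header differ in version. No label ties the 6 barcode suffixes to samples, so the edgeR test planned between genotypes was not run and all comparisons lie within the pooled matrix. Libraries hold 5.18e+07 to 9.61e+07 UMIs over 7475 to 16269 barcodes.

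Members and lists were chosen with earlier results of these data known. Counts were summed per group and library, scaled to CPM and compared by the size rule, with no test. The rule for named genes took the 10 largest and 10 smallest ratios outside the lists and up to 3 higher, 3 lower and 2 further genes per list, and other genes named were chosen after their values were seen. Exact 95% Clopper-Pearson intervals and the limit of 3 counts cover counting error only. Thinning to 5000 UMIs left out 1381 members. Doublets were called with Scrublet (scanpy 1.11.5) per library and kept. The size rule was tested on simulated data. RefSeq promoters of GRCm38.p6 on mouse chromosome 18 were not used. Genes past the size rule that the text does not name are not reported here. Python 3.11.15, numpy 2.4.6, scipy 1.17.1 and pandas 2.3.3 were used, and 22 alternatives were run.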

Additional observations from a re-analysis of the deposited data

How the results depend on the processing

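No paired analysis was possible because no barcode suffix can be tied to a sample, so no fit between genotypes was made, with or without a replicate block. All values below are counts or shares with no test. The percent of smooth muscle barcodes that are members was 73.6 and became 75.4 with at most 10% mitochondrial UMIs, 79.7 with a smooth muscle threshold of 3%, 65.9 with at least 5 Itga8 UMIs and 76.2 without cells rich in Dcn, an alternative chosen after seeing the data. Leaving out each library gave 71.9 to 75.2. The 40 list genes higher against Pln-positive cells became 4 with Pln of at least 1 UMI, 26 with at least 3 Itga8 UMIs in Pln-positive cells and 25 with these thinned to 5000 UMIs as well, the last chosen after seeing the data. Against Thbd-Ltbp2 cells, the 16 lower list genes became 5 with the 3% threshold and 7 at a minimum of 100 CPM. The 0 higher list genes became 2 at a minimum of 10 CPM and 2 without cells rich in Dcn, and leaving out each library gave 0 to 1, the 1 without library 3. In that comparison the Ly6a log2 ratio turned to 0.15 without cells rich in Dcn. The 2 list genes lower in Hox-positive members became 1 with at most 10% mitochondrial UMIs, 0 with the 3% threshold, 1 with at least 5 Itga8 UMIs, 0 with 10 CPM added, 4 at a minimum of 10 CPM, 1 at a minimum of 100 CPM, 0 with at least 1 Hox UMI and 1 without cells rich in Dcn. Leaving out each library gave 0 to 2. The cause of these shifts was not tested. No named gene reversed against Pln-positive cells in any alternative, and library 4 held the fewest member UMIs, 5.39e+06 from 473 members.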

Other observations

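In further gene lists at most 1 gene each passed the size rule between members and Pln-positive cells. Over all genes tested 4.59% were higher and 7.09% lower. With 3 to 10 genes tested per list, these counts cannot be told apart from those shares. Of 10 circadian clock genes tested, Bhlhe40 was lower in members (35.4 against 81.9 CPM) and none was higher. Of 10 MEKK2/3 and MAP kinase genes, Spry4, an inhibitor of receptor tyrosine kinase signalling, was lower (9.63 against 32.9 CPM). None of 6 interferon response genes and none of 3 chloride channel genes passed the size rule. Of 6 Hox genes Hoxc6 was lower (12.5 against 30.6 CPM), a call lost under 7 alternatives, among them leaving out library 1 or library 4, and of 6 genes of modulated smooth muscle fibronectin (Fn1) was higher (1776 against 702 CPM).

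The clock output gene Dbp differed between libraries within the members by 4.23 times, from 47.5 CPM in library 6 to 201 CPM in library 1, and Per3 by 3.52 times, from 10 CPM in library 6 to 35.2 CPM in library 4. The stress gene Hspa1b differed by 4.20 times, from 242 CPM in library 1 to 1017 CPM in library 6, and Timp4 by 4.29 times, from 41.4 CPM in library 6 to 177 CPM in library 4. The time of tissue collection is not stated in the labels.

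Gm26870, a gene model with no assigned role in the files, stood at 49.6 CPM in members and had a variance over mean of 1.61 to 198 by library, the widest range among the 6 highest medians.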
